A study of Mus musculus with 45 samples.

Results

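Pax7 and Pax3 are the paired-box transcription factors of the skeletal muscle lineage, and they were followed here through 15 groups of cells. They are 2 of the 35675 genes for which reads could be summed over transcripts. Both were taken by name, with no threshold on their values, though earlier results of these data were known. The series asks how mouse embryonic fibroblasts (MEFs) driven by the muscle transcription factor MyoD become induced myogenic progenitor cells (iMPCs), a dividing culture that holds muscle stem-like and differentiated cells.

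The fibroblast groups were untreated MEFs, MEFs given doxycycline (Dox) for 2, 4, 6, 8 or 10 days, and MEFs given Dox together with F/R/C for the same days. The labels give F/R/C as letters only; in the published iMPC method they stand for forskolin, RepSox and a CHIR inhibitor of GSK3. Dox switched on MyoD, so the groups without F/R/C are called MyoD alone. Bulk iMPCs had been kept in medium with F/R/C after 13 days of Dox and F/R/C. Pax7-positive iMPCs and Pax7-positive myoblasts were purified by fluorescence-activated cell sorting on the reporter, and bulk myoblasts were primary cells from skeletal muscle. All groups, MEFs and myoblasts included, shared the genotype Tg:Pax7-nGFP/C57BL6;DBA2, in which nuclear GFP reports Pax7. The labels do not describe the MyoD construct, the age of the animals or how many clones or animals a group drew on. Each group had 3 libraries of 15.6 to 36.3 M assigned reads (M for mega, median 22.1 M), and the bulk iMPC libraries, at 33.2 to 36.3 M, were among the deepest. The labels only number the libraries within a group, so p-values measure the spread between these libraries, which may be technical.

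Pax3 and Pax7 bind DNA through a paired domain and a homeodomain. In the embryo Pax3 acts first, in the somite, in the migrating limb muscle precursors and also in the neural crest and dorsal neural tube, and Pax7 then takes over as the factor that marks and maintains satellite cells, the stem cells of adult muscle. Both are upstream of Myf5 and MyoD and are switched off as myoblasts differentiate.

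Pax7 lies at chr4:139737062-139833528 and Pax3 at chr1:78101267-78197134 of GRCm38, both on the minus strand. GENCODE M21 gives Pax7 a long transcript (ENSMUST00000030508) and a short one (ENSMUST00000174681), both coding. They differ in exon 1, which is 702 bases long in the long transcript and 181 in the short one, in the last exon, which is 3841 and 227 bases long, and at the start of exon 4, where the short transcript holds 6 more bases. Pax3 has 2 coding transcripts that part at the end of exon 8, a spliced form (ENSMUST00000004994) that joins it to exon 9 and a read-on form (ENSMUST00000087086) that continues past it, and a processed transcript (ENSMUST00000172555). The spliced and read-on forms also differ in the length of exon 1, at 174 and 470 bases. The sequences at exon 4 of Pax7 and at the end of exon 8 of Pax3, read 5′ to 3′ from the M21 transcripts, are shown because the coding sequences part there; reads can also be assigned by the parts of the first and last exons that only 1 transcript holds. Exon 4 starts at position 139828704 in the long and at 139828710 in the short Pax7 transcript, and the Pax3 transcripts part at position 78103328. Capitals mark the 6 bases that only the short Pax7 transcript holds and, in Pax3, the 12 bases that follow the end of the shared exon 8 sequence.
Pax7, long transcript: cggtgccctcagtgagttcgatta
Pax7, short transcript: cggtgccctcagGTTTAGtgagttcgatta
Pax3, spliced form: agtatggacaaaGTGCCTTTCATT
Pax3, read-on form: agtatggacaaaGTAAGCCTTGGA

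The extra GTTTAG lengthens the coding sequence from 503 to 505 codons, without the stop. Between the genes, the coding parts of exons 1, 2 and 3, which were of equal length in the 2 genes, were 85.9%, 83.1% and 78.5% identical, and those of exons 6 and 8 were 72.9% and 69.6% identical. The longest run of bases shared by any Pax7 and any Pax3 transcript was 26, and the reads were 100 bases long. A full-length read thus carries letters that tell the genes apart.

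Pax7 was close to silent in fibroblasts and stayed so with MyoD alone, but it appeared on day 4 with F/R/C and had a higher mean on each later day sampled. The untreated MEF libraries held 0, 1 and 0 reads of Pax7. With MyoD alone no library on any day held more than 4. A floor of 3 reads was taken for stray reads, and 1 library of MyoD alone, day 10 replicate 2 with 4 reads, lay above it.

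On day 2 with F/R/C all 3 libraries held 0 Pax7 reads. On day 4 they held 5, 4 and 25. On day 6 they held 58, 33 and 191. Every library was above the floor from day 4 on, day 4 replicates 1 and 2 by at most 2 reads, and replicate 3 stood above the other two on both days, with 25 of the 34 reads of day 4. On day 8 the counts were 546, 717 and 758, and on day 10 they were 1904, 1394 and 1335. In read counts scaled to library size by TMM and to a fixed total (CPM), the mean was 0.541 ± 0.562 (SD, n = 3) on day 4, 4.63 ± 4.26 on day 6, 30.3 ± 0.897 on day 8 and 63.6 ± 14.8 on day 10. The libraries of successive days did not overlap in CPM, and the spread was widest, relative to the mean, on the first 2 of these days.

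**Figure D1:**
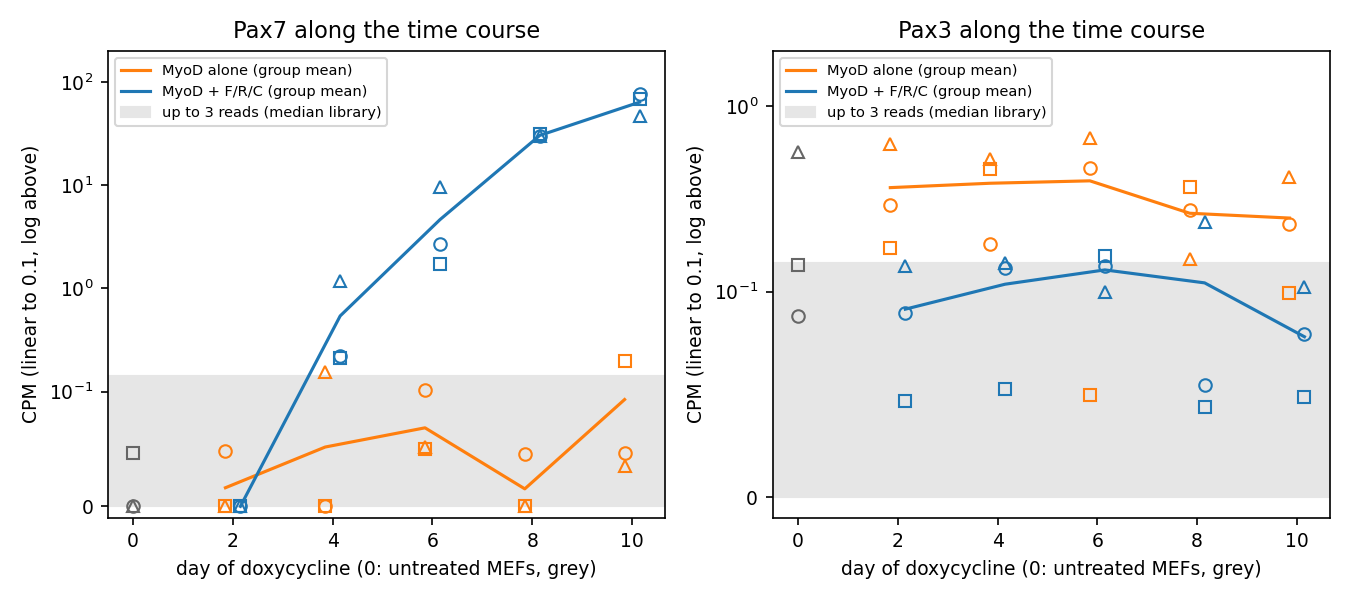
Pax7 (left) and Pax3 (right) in CPM, on an axis that is linear to 0.1 and logarithmic above, against the day of doxycycline; points are libraries (circle, square and triangle for replicates 1, 2 and 3), lines are means of 3, grey points are untreated MEFs and the shaded band is the level of up to 3 reads in a library of median size. Pax7 leaves the band on day 4 with F/R/C and reaches a mean of 63.6 CPM on day 10, whereas the Pax3 libraries with F/R/C stay in or near the band on all days.

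Set against MyoD alone on the same day, Pax7 was called higher in the F/R/C cultures on days 4, 6, 8 and 10. To be called, a gene needed an adjusted p below 0.05 in edgeR's quasi-likelihood test over 17325 genes and a log2 fold change of 1 or more in either direction. On day 2 there were 0 reads with F/R/C against 1 with MyoD alone, and no fold is given. On day 4 the summed reads were 34 against 3, a ratio of 11.1 with a counting interval of 3.49 to 56.5, and the log2 fold change was 3.33 (SE 1.05, edgeR adjusted p 0.0204). Pax7 passed the filter on low counts through later groups in which it is high: with only the day 4 groups, or only days 2 and 4 of F/R/C, it was filtered out. With no filter the day 4 difference was still called (3.36). On day 6 the log2 fold change was 5.98 (SE 0.78, edgeR adjusted p 3.0e-06). On days 8 and 10 Pax7 ranked 3 and 1 by p among the genes tested. With replicates blocked by number it ranked 48 and 45, and with DESeq2 38 and 2. The ratio of reads on day 8 rests on a single read with MyoD alone and was 1839 with an interval of 330 to 72662 (log2 fold change 10.44, SE 0.87, edgeR adjusted p 2.0e-09). On day 10 the ratio was 735 with an interval of 338 to 2005 (log2 fold change 9.44, SE 0.72, edgeR adjusted p 6.4e-10).

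The share of all genes called on days 2, 4, 6, 8 and 10, in either direction, was 4.93%, 13.2%, 15.4%, 18.7% and 23.3%. On day 2 this was 854 genes, and 1770 when replicates were blocked by number; it was 423 without replicate 3 with F/R/C and 488 without replicate 2 of MyoD alone. The day 4 call rested on few reads: it was lost without replicate 3 with F/R/C (log2 fold change 2.04, edgeR adjusted p 0.283), and without replicate 1 or 2 of MyoD alone (2.77 and 2.83, edgeR adjusted p 0.0874 and 0.0822), and the fold change was 6.63 without replicate 3 of MyoD alone. Leaving out replicate 3 with F/R/C gave 4.94 on day 6, leaving out replicate 1 of MyoD alone gave 12.46 on day 8, and leaving out replicate 2 of MyoD alone gave 10.50 on day 10; those calls held. The effect of F/R/C was 6.11 log2 units larger on day 10 than on day 4 (SE 2.24). This did not pass the test of that difference (edgeR adjusted p 0.102, 3.47% of genes called). The SE was derived back from the test statistic. It is larger than the SEs of the day 4 and day 10 effects, 1.05 and 0.72, would give together, so it is a rough guide only.

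From day to day with F/R/C, Pax7 was at least 11.9-fold higher on day 4 than on day 2, against the floor of 3 reads over the day 2 group (edgeR adjusted p 0.0146). In that step 508 genes, 2.93% of those tested, were called, and 1434 with the replicate block. That count fell to 136, 266 and 170 without day 2 replicate 1, 2 or 3, and to 185 and 235 without day 4 replicate 2 or 3. Pax7 lost the call without any 1 of the day 2 libraries (edgeR adjusted p from 0.0557 to 0.0760) and without day 4 replicate 3 (0.148). From day 4 to day 6 the log2 fold change was 3.08 (SE 0.56, edgeR adjusted p 0.0991), which missed the threshold although the libraries did not overlap. EdgeR called 0% of genes in that step (515 had an unadjusted p under 0.05), and DESeq2 and limma called 1 each. DESeq2 called Pax7 (3.11, adjusted p 0.00256), as did the same edgeR fit without day 4 replicate 3, day 6 replicate 1 or day 6 replicate 2 (adjusted p 0.0110, 0.0466 and 0.00985).

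Between day 6 and day 8, Pax7 was the only 1 of the 17325 genes that was called, which is 0.00577% of them (log2 fold change 2.71, SE 0.47, edgeR adjusted p 0.0390). With the replicate block 31 genes were called, Pax7 among them (2.94, edgeR adjusted p 0.0111). With only the 2 days in the fit it was not called (2.77, edgeR adjusted p 0.279). It was also lost without day 6 replicate 1 or 2 (adjusted p 0.994 and 0.495) and without any 1 of the day 8 libraries (0.129 to 0.166), while without day 6 replicate 3 the fold change was 3.83. From day 8 to day 10 the log2 fold change was 1.07 (SE 0.43, 95% interval 0.19 to 1.95, edgeR adjusted p 1). EdgeR again called 0% of genes (320 had an unadjusted p under 0.05), and DESeq2 and limma called 1 each. Day 10 with F/R/C stood far above the untreated MEFs, at 4633 reads against 1 (log2 fold change 11.49, SE 0.87, edgeR adjusted p 3.3e-11, with 34.8% of genes called). Without MEF replicate 2, which held that read, it was 13.57.

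These are bulk samples, in which fewer cells of a type and less RNA per cell cannot be told apart. Beside the rise of Pax7, the summed level of 12 fibroblast markers was 1448 to 5471 CPM on day 10 with F/R/C, where MyoD alone had 14005 to 30529 CPM. The sum was also lower with F/R/C on day 2, when those libraries held 0 Pax7 reads. It was 5163 to 7369 CPM there and 13080 to 18010 CPM with MyoD alone. Of neural crest and dorsal neural tube, tissues that also use Pax3 and Pax7, 14 markers summed to 32.5 to 63.3 CPM on day 10 in the F/R/C libraries and to 7.64 to 25.2 CPM in those of MyoD alone. Of these markers Foxd3, a neural crest transcription factor, gave 161, 297 and 352 reads on day 10 with F/R/C and 0, 2 and 6 with MyoD alone. Sox10, which defines migrating neural crest, gave 1, 2 and 3 reads on day 10 with F/R/C. In Pax7-positive iMPCs, where Pax7 was far higher, the 14 markers summed to 59.4 to 163 CPM, with Foxd3 at 1, 8 and 9 reads, and in Pax7-positive myoblasts they summed to 16.5 to 42.4 CPM. Untreated MEFs had sums of 12.6 to 130 CPM. The part of these markers in the Pax7 result was not tested.

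Pax3 did not follow Pax7. It was near the floor in every library that came from fibroblasts, with at most 18 reads, and no comparison among them was called in edgeR's fit of all libraries. Of all genes, 20.4% and 22.4% were called on day 2 with F/R/C and with MyoD alone against MEFs, and 18.9% on day 10 with MyoD alone against MEFs (3279 genes, and 2068 without MyoD alone replicate 2). The MEF libraries held 2, 3 and 9 reads of Pax3. Those of MyoD alone held 6, 3 and 14 on day 2, 4, 9 and 10 on day 4, 9, 1 and 13 on day 6, 6, 7 and 3 on day 8, and 5, 2 and 12 on day 10. With F/R/C the 15 libraries held between 1 and 6 reads each. Replicate 3 was the highest of its group in MEFs and in MyoD alone on days 2, 4, 6 and 10.

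Pax3 was lower with F/R/C than with MyoD alone on each of the 5 days, at 6, 7, 8, 8 and 6 summed reads against 23, 23, 23, 16 and 19. The log2 fold changes were -1.95 (SE 0.96), -1.73 (SE 0.94), -1.56 (SE 0.93), -1.15 (SE 0.95) and -1.62 (SE 0.97). The edgeR adjusted p-values were 0.226, 0.190, 0.218, 0.371 and 0.186, so none was called. The 2 treatments did not overlap in CPM on days 2 and 4 and overlapped on days 6, 8 and 10. Leaving out replicate 3 of MyoD alone gave -1.30, -0.91 and -1.01 on days 2, 6 and 10, and leaving out replicate 3 with F/R/C gave -2.32 on day 8; none of these was called. Blocked by replicate number, the fit called the day 4 difference (-1.74, edgeR adjusted p 0.0442). That call rests on 7 against 23 summed reads. The blocked fit kept the low-count filter of all 45 libraries, which include the myoblasts, where Pax3 is highest. A difference between days in the effect of F/R/C on Pax3 was not detectable at this depth (day 10 minus day 4: 0.11 log2 units, SE 1.67, edgeR adjusted p 0.983). Day 10 with F/R/C against MEFs gave -1.58 (SE 1.00, 95% interval -3.62 to 0.46, edgeR adjusted p 0.186), and -0.46 without MEF replicate 3.

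**Figure D2:**
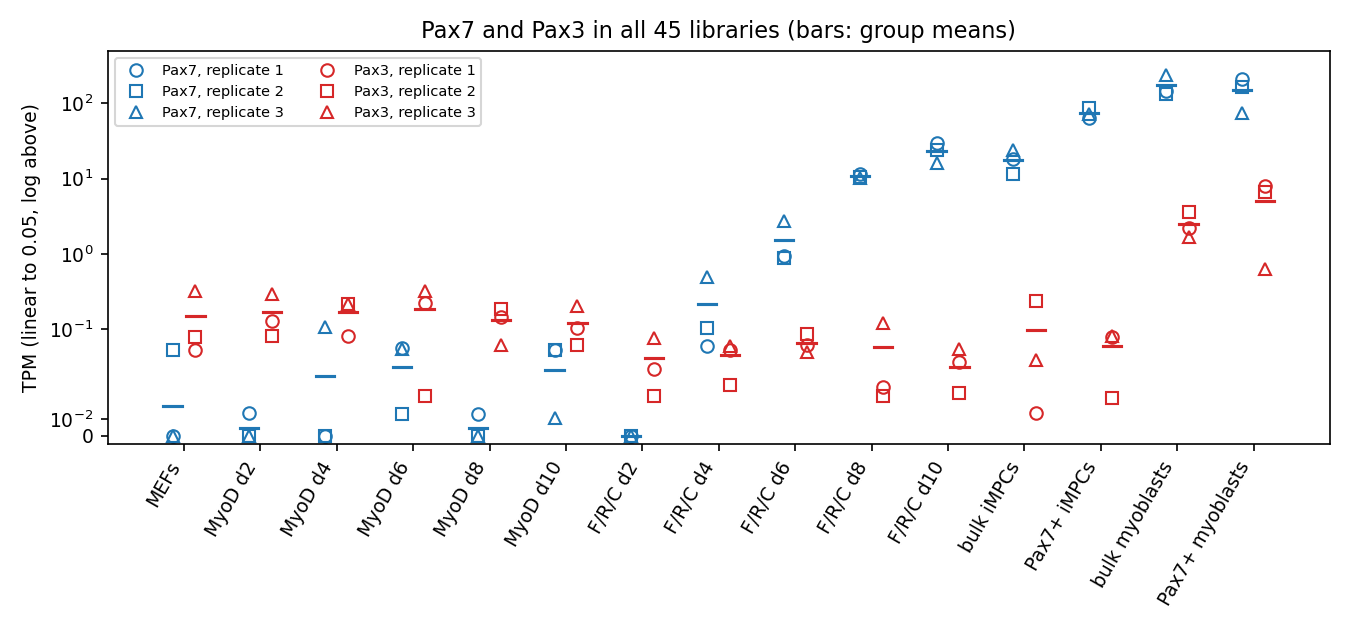
Pax7 (blue) and Pax3 (red) in TPM, on an axis that is linear to 0.05 and logarithmic above, in all 45 libraries; bars are means of 3 libraries. Pax7 rises from 0 on day 2 with F/R/C to a mean of 23.4 TPM on day 10 and is highest in the myoblast groups, and Pax3 is above 0.5 TPM only in the 6 myoblast libraries.

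On the scale of transcript abundance per library, TPM, which allows for transcript length, the order of Pax7 levels was led by bulk myoblasts at 173 ± 56.1 TPM (SD, n = 3), with 146, 135 and 237 TPM in the libraries. Pax7-positive myoblasts followed at 149 ± 68.8 TPM, with 208, 165 and 73.4, and then Pax7-positive iMPCs at 73.8 ± 11.5 TPM, with 63.6, 86.3 and 71.4. These neighbours overlapped. Day 10 with F/R/C came next at 23.4 ± 7.0 TPM, with 29.9, 24.3 and 16.0, and bulk iMPCs after it at 17.9 ± 6.19 TPM, with 18.1, 11.5 and 23.9. Day 8 had 10.7 ± 0.733 TPM, within whose range the lowest bulk iMPC library also fell. Day 6 had 1.52 ± 1.06 TPM and day 4 had 0.217 ± 0.235 TPM, and neither overlapped the next group in the order of means. Day 4 did overlap MyoD alone of the same day in TPM, where replicate 3 of MyoD alone was at 0.107 and F/R/C replicates 1 and 2 were at 0.0606 and 0.103. All other groups had means of at most 0.0407 TPM. In CPM the 2 myoblast groups changed places, with 489 ± 130 in bulk and 612 ± 238 in Pax7-positive myoblasts. The sorted libraries were quantified with another fragment length than the rest, which enters TPM. Its part in this order was not tested.

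For Pax3 the order of TPM levels began with Pax7-positive myoblasts at 5.04 ± 3.88 TPM (7.90, 6.59 and 0.629) and bulk myoblasts at 2.50 ± 1.02 TPM (2.20, 3.64 and 1.66), which overlapped. No library of another group exceeded 0.318 TPM. Below the myoblasts each of the 13 groups overlapped the next in the order of means. The libraries of MyoD alone lay above those with F/R/C on days 2 and 4.

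Bulk iMPCs carried about as much Pax7 as the day 10 cultures. The log2 fold change was -0.04 (SE 0.43, edgeR adjusted p 0.959), and its 95% interval, -0.91 to 0.83, still allows a difference of either sign; 9.57% of genes were called. Against untreated MEFs Pax7 was higher in bulk iMPCs, at 6776 reads against 1 (log2 fold change 11.45, SE 0.87, edgeR adjusted p 2.6e-11, with 35.5% of genes called, and 13.51 without MEF replicate 2). Against bulk myoblasts it was lower, at 61.7 ± 21.1 CPM against 489 ± 130 CPM (log2 fold change -2.99, SE 0.46, edgeR adjusted p 1.3e-05, with 19.6% of genes called). The summed level of 12 differentiation markers was 22483 to 29268 CPM in bulk iMPCs and 1165 to 33394 CPM in bulk myoblasts. Bulk myoblast replicate 3, the library with 1165 CPM, had the highest Pax7 of its group.

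Among sorted cells, which were gated on the Pax7 reporter, Pax7 was at 306 ± 43.7 CPM in Pax7-positive iMPCs and 612 ± 238 CPM in Pax7-positive myoblasts, where the libraries held 813, 674 and 349 CPM. The log2 fold change was -0.999 (SE 0.43, 95% interval -1.87 to -0.12), and with an edgeR adjusted p of 0.0547 it was not called, while 30% of genes were. Without Pax7-positive myoblast replicate 3 it was called (-1.28, edgeR adjusted p 0.0226). That library also had the highest differentiation sum of its group, 15563 CPM against 4426 and 5537 CPM. The Pax7-positive iMPC libraries held 1414 to 1949 CPM of these markers. The part of differentiated cells in these Pax7 values was not tested.

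Sorting was on a Pax7 reporter, so a higher Pax7 level in sorted iMPCs than in bulk iMPCs (log2 fold change 2.31, SE 0.45) describes the gate, and it is given with no test. In myoblasts the same sort moved Pax7 little, from 489 to 612 CPM (log2 fold change 0.32, SE 0.42, 95% interval -0.54 to 1.19), and the libraries overlapped. In the TPM values the difference had the other sign (-0.30 on the log2(TPM + 1) scale).

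Pax3 separated iMPCs from myoblasts in both kinds of sample. Bulk iMPC libraries held 1, 18 and 3 reads of Pax3 and bulk myoblast libraries 100, 264 and 79. The ratio of summed reads, scaled to library size, was 0.0408 with a counting interval of 0.0253 to 0.0625, and the log2 fold change was -4.48 (SE 0.83, edgeR adjusted p 1.2e-04). Pax7-positive iMPC libraries held 4, 1 and 3 reads and Pax7-positive myoblast libraries 420, 342 and 25. The ratio there was 0.0114 with an interval of 0.00489 to 0.0225, and the log2 fold change was -6.23 (SE 0.93, edgeR adjusted p 2.2e-06). The iMPC and myoblast libraries did not overlap in either comparison. The difference between the sorted and the bulk comparison was -1.75 (SE 1.16, edgeR adjusted p 0.258, with 24.1% of genes called). With 25 reads, Pax7-positive myoblast replicate 3 was far below its group, as it was for Pax7. Pax3 in Pax7-positive myoblasts against bulk myoblasts was not called (1.02, SE 0.69, 95% interval -0.39 to 2.43, edgeR adjusted p 0.367). Of all genes 6.23%, or 1080, were called there, and 521 without Pax7-positive myoblast replicate 2 and 668 without bulk myoblast replicate 1.

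Bulk iMPC replicate 2, with 18 Pax3 reads, stood apart from the other two in other markers as well. It held 1680 reads of Tfap2b, a transcription factor of neural crest and limb mesenchyme, where the others held 8 and 5, and its melanocyte marker sum was 20.1 CPM against 5.17 and 5.81 CPM. Without it the Pax3 log2 fold change against bulk myoblasts was -6.29 (edgeR adjusted p 4.1e-05). Markers of endothelium summed to at most 5.26 CPM and those of blood cells to at most 7.60 CPM in the iMPC and myoblast libraries, and 13 muscle progenitor markers, Pax7 included, summed to between 1752 and 4094 CPM.

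**Figure D3:**
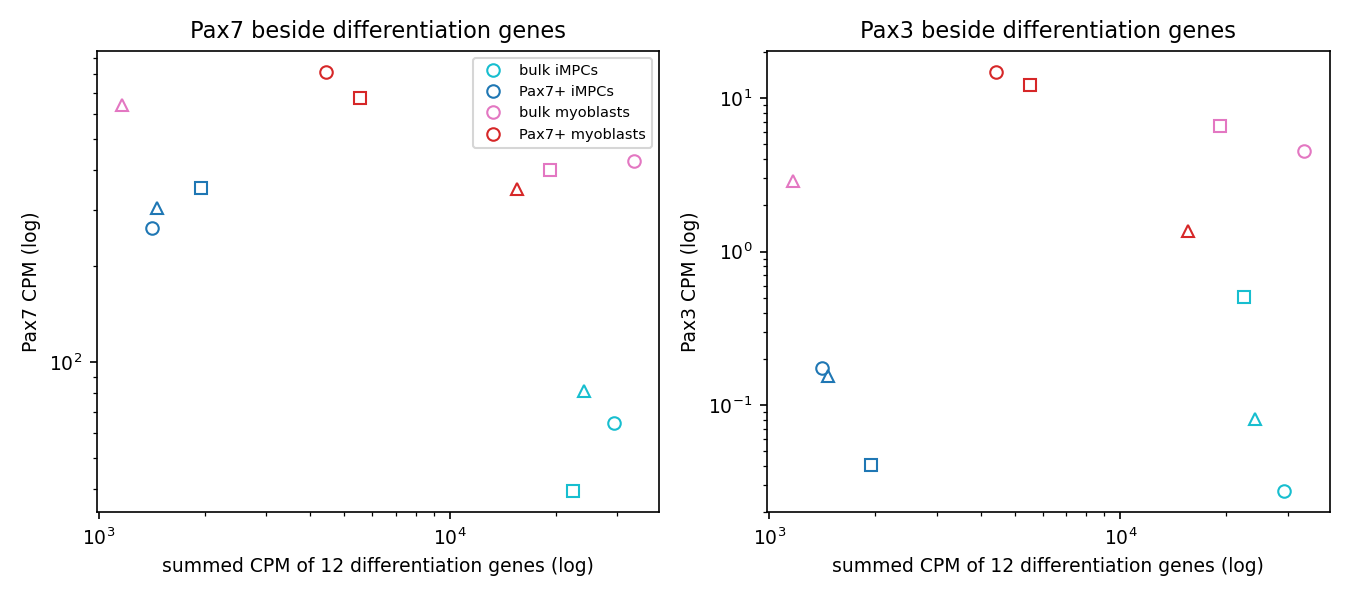
Pax7 (left) and Pax3 (right) in CPM against the summed CPM of 12 differentiation genes in the 12 iMPC and myoblast libraries, all axes logarithmic (circle, square and triangle for replicates 1, 2 and 3). At differentiation sums from 1165 to 33394 CPM the 6 iMPC libraries lie below 0.6 CPM of Pax3 and the 6 myoblast libraries above 1, and Pax7-positive myoblast replicate 3 has the highest differentiation sum and the lowest Pax7 and Pax3 of its group.

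The balance of the genes was compared as log2 (Pax7 TPM + 0.1) minus log2 (Pax3 TPM + 0.1). In the 6 iMPC libraries it was 7.73 ± 1.52 (SD; 5.10 to 9.46), and in the 6 myoblast libraries 5.70 ± 1.03 (4.62 to 7.07). The difference of 2.02 had p = 0.0400 in a two-sided exact permutation test within sorted and within bulk samples (400 arrangements), and 0.0800 adjusted over the 2 exact tests made, so it did not pass. On CPM, which are not per length, the difference was 2.60 and its adjusted exact p was 0.0300; with a pseudocount of 1 TPM its sign turned (-0.14). Without bulk iMPC replicate 2 the adjusted exact p was 0.0200 (difference 2.55). In bulk samples the balance was 7.3, 5.1 and 7.4 in iMPCs and 6.0, 5.2 and 7.1 in myoblasts, which overlapped. In sorted samples it was 8.5, 9.5 and 8.6 in iMPCs and 4.7, 4.6 and 6.7 in myoblasts, which did not overlap. The sorted cells were gated on the reporter of Pax7, which is part of the balance.

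Most Pax7 reads were assigned to the long transcript. In the libraries with at least 20 Pax7 reads, the short transcript, the form with GTTTAG at the start of exon 4, took 7.44 ± 2.11% (SD, n = 3) of the estimated reads on day 8 with F/R/C and 8.12 ± 2.11% on day 10. It took 1.78 ± 0.244% in bulk iMPCs, 4.54 ± 0.841% in Pax7-positive iMPCs, 3.64 ± 1.45% in bulk myoblasts and 2.74 ± 0.695% in Pax7-positive myoblasts. The day 8 and day 10 libraries, at 5.20% to 10.3%, all lay above the iMPC and myoblast libraries, at 1.53% to 5.16%. This difference was not tested. On day 6 the shares were 8.86%, 30.9% and 3.02%, on 58, 33 and 191 reads, and on day 4 the only library with enough reads gave 19.5%.

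Because the short transcript collects fewer reads per molecule, its share of Pax7 TPM was larger, 25.6 ± 5.42% on day 10 with F/R/C and 6.45 ± 0.845% in bulk iMPCs. The long transcript took 96.8 ± 1.61% of reads in the 6 iMPC libraries and 96.8 ± 1.13% in the 6 myoblast libraries (two-sided exact permutation p = 0.975, also after adjustment over the 2 exact tests). Bulk and sorted samples went opposite ways, without overlap. Bulk iMPCs were at 98.0% to 98.5% and bulk myoblasts at 95.1% to 97.9%. Pax7-positive iMPCs were at 94.8% to 96.4% and Pax7-positive myoblasts at 96.5% to 97.7%. The pooled test averages over these and cannot show equal usage within bulk or within sorted samples. Files of the 6 sorted libraries were made with another fragment length than the rest: the median transcript lost 180.03 bases of effective length in them and 152.81 in the others. This setting enters the split between transcripts and cannot be told apart from sorting. Bulk iMPC libraries were also the deepest of the established cells on the whole, and the part of depth was not tested.

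**Figure D4:**
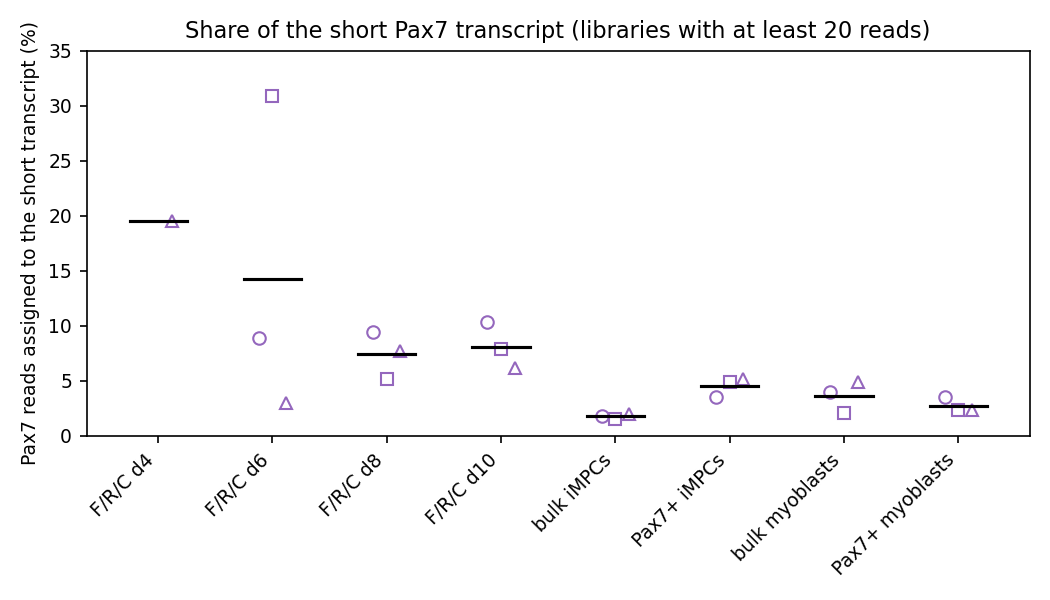
Percentage of estimated Pax7 reads assigned to the short transcript in each library with at least 20 Pax7 reads (circle, square and triangle for replicates 1, 2 and 3; bars are group means, and day 4 has 1 library). Shares are 5.20% to 10.3% on days 8 and 10 with F/R/C and 1.53% to 5.16% in the established cells, and the low read numbers of days 4 and 6 come with a wide spread.

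Pax3 reads were enough for such shares only in myoblasts, and the transcript comparison planned for iMPCs could not be made, as 0 iMPC libraries had 20 Pax3 reads. The spliced form of Pax3 took 22.7%, 38.2% and 65.0% of the reads in bulk myoblasts and 49.1%, 63.3% and 58.3% in Pax7-positive myoblasts. The read-on form took 68.2%, 53.9% and 30.2% and 43.2%, 35.9% and 31.5%. Which form prevailed thus differed between replicates of bulk myoblasts. The processed transcript took at most 10.2%.

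Of the 9 Pax genes, 4 passed the filter on low counts. Pax1, a factor of the sclerotome, was a gene of the fibroblasts here, with 48 to 92 reads in MEFs, and was lower with F/R/C than with MyoD alone on day 10 (0.323 ± 0.113 CPM against 1.53 ± 0.897 CPM, log2 fold change -2.25, SE 0.64, edgeR adjusted p 0.00597). Pax9, its close relative, held 7 to 104 reads in MEFs and 1 to 105 in bulk iMPCs. Pax6, the eye and neural tube factor, held at most 24 reads, reached in a Pax7-positive iMPC library. Pax2, Pax5 and Pax8, a related subgroup, held at most 12, 8 and 8 reads, and Pax4, a factor of the endocrine pancreas, at most 1.

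Genes upstream of or beside Pax3 and Pax7 in the muscle lineage gave 5 higher and 3 lower calls of 16 tested on day 10 with F/R/C against MyoD alone, when 9.91% of all genes were called higher and 13.4% lower. Their median log2 fold change was 0.50, against -0.07 over all genes. Among the higher calls, the coactivators Eya2 and Eya1 changed by 3.96 and 1.15 on the log2 scale, and Six4, a homeobox factor that works with Eya coactivators, by 1.42. The lower calls were Barx2 (-3.68), a homeobox gene of muscle and connective tissue, Foxc2 (-2.69), a mesoderm factor, and Six5 (-1.10). These 6 genes had edgeR adjusted p-values of at most 0.0130. Before Pax7 was called, on day 2, this group had 2 higher and 1 lower call of 16, when 2.13% of all genes were called higher and 2.8% lower.

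Genes described as targets of Pax3 or Pax7 in muscle progenitors were called higher more often from day to day, 2, 3, 5, 7 and 8 of 16 tested on days 2, 4, 6, 8 and 10, with 0, 3, 2, 2 and 3 lower. Of all genes, 2.13%, 6.58%, 8.23%, 9.2% and 9.91% were called higher on those days and 2.8%, 6.66%, 7.14%, 9.46% and 13.4% lower. The median log2 fold change of the targets on day 10 was 1.07. On day 2, when 2 of the targets were called higher, the F/R/C libraries held 0 Pax7 reads. The list also holds Myod1, the factor that Dox switched on. Myf5, the myogenic factor whose enhancers bind Pax7, had 54 reads over the day 4 libraries with F/R/C and 274 over those of day 10, against 0 with MyoD alone on both days, which makes it at least 17.6-fold and at least 87.0-fold higher against 3 reads over the group. Mest, an imprinted gene of mesoderm, was at 700 ± 165 CPM against 10.2 ± 5.93 CPM on day 10 (6.11, SE 0.79). Dmrt2, a somite factor, was higher by 4.80 (SE 0.83) and Fgfr4, the growth factor receptor of muscle progenitors, by 4.67 (SE 0.62). The members called lower were Chrd (-2.28), a secreted BMP antagonist, Met (-1.47), the receptor needed by migrating muscle precursors, and Cdh11 (-1.003), a mesenchymal cadherin. EdgeR adjusted p-values were at most 0.00897 for these 7 genes.

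In Pax7-positive iMPCs against Pax7-positive myoblasts, 7 of the 16 targets tested were called higher and 3 lower, with 12.4% of all genes called higher and 17.6% lower. Among the genes named above, Mest (2.71), Dmrt2 (2.77) and Fgfr4 (2.188) were higher in the iMPCs and Myf5 (-1.35) was lower. Lbx1, a homeobox gene of migrating limb muscle precursors chosen for mention after its values were seen, was lower by 6.28 on the log2 scale (0.266 ± 0.233 CPM against 21.8 ± 5.05 CPM, SE 0.67, edgeR adjusted p 1.5e-08).

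Satellite cell genes that accompany Pax7 gave 4 higher and 2 lower calls of 12 on day 10 with F/R/C, beside 9.91% and 13.4% of all genes. The higher calls were Myf5, Fgfr4, Heyl (4.80, SE 0.72), a Notch target, and Cxcr4 (3.80, SE 0.85), a chemokine receptor. Myf5, Fgfr4, Cxcr4 and Spry1 are also on the list of targets, so the calls on these lists are partly the same genes. Chodl (-3.27, SE 0.80) and Vcam1 (-2.76, SE 0.70), 2 surface proteins, were lower. In Pax7-positive iMPCs against Pax7-positive myoblasts the list gave 4 higher and 4 lower calls, beside 12.4% and 17.6% of all genes. Chodl was higher there (8.08, SE 1.08) and Vcam1 lower (-3.05, SE 0.72).

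Of 20 cofactors and modifiers of the Pax3 and Pax7 proteins, 1 was called on day 10, when 23.3% of all genes were: Setd7, a lysine methyltransferase, which was lower (-1.11, SE 0.22, edgeR adjusted p 2.3e-04). In either direction 11 of the 20 had an unadjusted p under 0.05, beside 8458 of all 17325 genes. DESeq2 and limma called 1 of the 20 each. Of 12 muscle differentiation genes 0 were called between F/R/C and MyoD alone on any of the 5 days by edgeR, DESeq2 or limma. Of all genes, edgeR called 4.93%, 13.2%, 15.4%, 18.7% and 23.3% on these days. Of the 12, 1 had an unadjusted edgeR p under 0.05 on day 2 and 0 on the other days. A p that low was found in 3834 of all 17325 genes on day 2 and in 8458 on day 10. The 12 genes had median log2 fold changes of -0.61, 0.04, 0.14, 0.003 and -0.13. On day 10 their summed CPM ranged from 10249 to 36213 with MyoD alone and from 13694 to 23137 with F/R/C. With this spread the missing calls do not show equal levels. In Pax7-positive iMPCs against Pax7-positive myoblasts 9 of these 12 were lower (17.6% of all genes were), with a median of -2.39 against -0.07 over all genes. Myod1, the induced factor, was at 3.56 ± 4.58 CPM in MEFs and on day 2 at 2625 ± 837 CPM with MyoD alone and 959 ± 344 CPM in the F/R/C cultures, where the transgene and the endogenous gene cannot be told apart.

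The genes whose group means ran most like Pax7 over the 15 groups were Myf5 (Pearson r 0.978), Slc2a12 (0.975), a glucose transporter, Pcdhb17 (0.972), a protocadherin, Pcsk2 (0.970), a prohormone convertase, and Spa17 (0.957), a sperm protein. The correlations are of mean log2 CPM, and the groups share libraries' depth and a common rise in iMPCs and myoblasts. Pcsk2 and Spa17 were low throughout, with group means of at most 2.01 and 1.94 CPM. Pcsk2 also varied widely between the Pax7-positive myoblast libraries (1.97 ± 1.7 CPM). Myf5 differed from Pax7 on the last days, with 3.41 CPM on day 8 and 3.61 CPM on day 10, when Pax7 went from 30.3 to 63.6 CPM. Among the genes most like Pax3 were 1700012B09Rik (0.944), Cd244a (0.938), Nme5 (0.937) and Hotair (0.936), all low outside the myoblast groups. Pax7 and Pax3 themselves had r = 0.422 over the 15 groups.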

How the data were processed

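RNA was measured by stranded poly-A selected RNA-seq with single-end reads of 100 bases, per the labels' protocols, in 45 libraries grouped by the sample titles. Per the file headers, the authors deposited estimated counts and TPM for each transcript, in the layout of kallisto; the submitters' processing notes name bcl2fastq 2.19, Trimmomatic 0.36, kallisto 0.44 and edgeR 3.28 and the build GRCm38.p6, without roles. The authors' estimated counts are not normalized, and the authors' deposited TPM are scaled to length and a fixed sum and keep no depth. The transcript release is not given in the sources used here.

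Of 121843 transcripts, 121104 matched GENCODE M21 (GRCm38), holding 99.4% to 99.8% of reads; counts and TPM were summed per gene and counts rounded. Tests used edgeR 4.0.16 in R 4.3.3 (TMM, filterByExpr, quasi-likelihood, all 45 libraries in 1 fit with a coefficient per group, 30 residual degrees of freedom, 17325 genes, Benjamini-Hochberg), and were tested on simulated data. Only genes with a mean above 1 CPM were changed in the simulation. Counts as low as those of Pax7 on day 4 or of Pax3 in cells from fibroblasts were thus not covered. CPM are scaled by TMM. Each SE of an edgeR log2 fold change was derived back from the test, as the size of the change over the root of the quasi-likelihood F. The 95% intervals of log2 fold changes use this SE. It is not a separate estimate of precision, and both are rough where a group holds few reads. Intervals of read ratios and the floor of 3 reads cover counting error only, since without molecular identifiers 2 reads may copy 1 molecule. Alternatives were RLE size factors, no filter, DESeq2 1.42.0, limma 3.58.1 on log2(TPM + 1), fits of only the groups compared, a replicate block and leaving out each library. The labels give the groups the same replicate numbers without saying what a number shares. Same-numbered libraries deviated together (every correlation over 0.1) for F/R/C against MyoD alone on days 2, 4 and 6 and between successive F/R/C days, so there the blocked value is given where it changes a call or moves a count by over 1.5 times.

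Pax7, Pax3, the gene lists and the markers were chosen with earlier results of these data known. Of each list, up to 4 higher and 4 lower called genes with the largest log2 fold change on day 10 are named, all Pax genes, and the 5 genes most like each member; some genes that this rule names are not reported here. The 2 tests of differences between comparisons were chosen after seeing the data. No protein or genome tracks were used.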

Additional observations from a re-analysis of the deposited data

How the results depend on the processing

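For 32 results, 158 of 169 values under other settings and 169 of 204 values with a library left out kept their direction and their side of the threshold. Fits that filtered the gene out are not among these values, as for Pax7 with only the day 4 groups or only days 2 and 4 of F/R/C. Results that were not called and stayed so count as kept, among them Pax3 results near the floor. With limma on log2(TPM + 1), a pseudocount that compresses low genes, Pax7 with F/R/C against MyoD alone on day 4 was 0.217 and not called, and Pax7 on day 4 against day 2 had an adjusted p of 0.609. Pax7 in sorted against bulk myoblasts was -0.296 there, and Pax3 on day 10 of MyoD alone against MEFs, 0.037 in edgeR, was -0.0284 with limma and -0.0242 with DESeq2. DESeq2 called Pax7 on day 6 against day 4 (3.11), and a fit of only the groups compared lost day 8 against day 6 (2.77). The balance of Pax7 and Pax3 was -0.144 with a pseudocount of 1 TPM and 2.599 on CPM. The cause was not tested.

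With the replicate block and the low-count filter of all 45 libraries, Pax3 with F/R/C against MyoD alone on day 4 was called (-1.74). Pax3 in bulk iMPCs against bulk myoblasts, whose numbers do not pair the libraries, was not called with the block (-5.06, edgeR adjusted p 0.0735). The block changed no other call on Pax7 or Pax3. Genes called changed by over 1.5 times for day 2 (854, 1770 with the block and 1420 with only the groups compared), day 4 against day 2 (508, 1434, 975 and 822 with DESeq2), day 8 against day 6 (1, 31 and 0, and 2 with DESeq2 and 3 with limma), bulk iMPCs against bulk myoblasts (3396, 199 and 1265), sorted iMPCs against sorted myoblasts (5199, 3064 and 3424), MyoD alone on day 10 against MEFs (3279, and 2019 with only the groups compared), sorted against bulk myoblasts (1080, 0 and 0), and bulk iMPCs against day 10 (1658 and 0 with the block). With 0 called for day 6 against day 4 and for day 10 against day 8, DESeq2 and limma each called 1.

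Leaving out 1 library at a time gave, for Pax7, 2.04 to 6.63 (F/R/C against MyoD alone, day 4), adjusted p from 0.00866 to 0.148 (day 4 against day 2), 2.01 to 4.40 (day 6 against day 4), 2.36 to 3.83 (day 8 against day 6), -0.292 to 0.198 (bulk iMPCs against day 10) and -1.28 to -0.740 (sorted iMPCs against sorted myoblasts). For Pax3 it gave -0.574 to 1.10 and -0.123 to 1.63 (MyoD alone on days 10 and 2 against MEFs), -2.10 to 0.822 (bulk iMPCs against MEFs), -2.02 to -0.465 (F/R/C on day 10 against MEFs), -2.03 to -0.910 and -2.32 to -0.767 (F/R/C against MyoD alone on days 6 and 8), -0.520 to 1.80 (bulk iMPCs against day 10) and -1.23 to 1.08 (sorted against bulk iMPCs). The balance ranged from 1.68 to 2.55 and the share of the long Pax7 transcript from -0.311 to 0.431 percentage points. A group left with 2 libraries is assumed to vary like the others. At 1 to 18 reads a library, depth limits what can be said of Pax3 in cells from fibroblasts.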
